A study of Homo sapiens with 18 samples.

Results

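The genes described here are 9 rows of a table of 36684 gene symbols: the drug-oxidising cytochromes P450 CYP3A4, CYP3A5, CYP3A7, CYP2B6, CYP2C8 and CYP2E1, the nuclear receptors NR1I2 (PXR) and NR1I3 (CAR), and POR, the reductase that passes electrons to P450 enzymes. They were chosen by name as a pathway, with earlier results of these data known. All 9 had at least 1 read, and 6 of the 9 passed the filter on low counts. CYP3A4, CYP2E1 and NR1I2 did not pass it and are given by their reads.

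The cells were Hep3B, a human hepatoma line, and the labels put 3 libraries in each of 6 groups. Con was the control group. The Model group received free fatty acids (FFA), which load hepatocytes with lipid. A further 3 groups received FFA with fucoxanthin (FUCO), a carotenoid of brown algae, at 0.5, 1 or 2 μM, and the last group received FFA with RES (Resmetirom, an agonist of thyroid hormone receptor beta), the positive control. The FFA concentration, the treatment times and the RES dose of these libraries are not given in the sources used here, no group received RES or FUCO without FFA, and 1 cell line was used.

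PXR and CAR are nuclear receptors of the liver that sense drugs and other foreign compounds. Each pairs with the retinoid X receptor on DNA and raises transcription of CYP3A and CYP2 genes, and of conjugating enzymes and transporters that clear the same compounds. The P450 enzymes they control sit in the endoplasmic reticulum, carry haem, and depend on POR for electrons. CYP3A4 is the main CYP3A enzyme of adult liver, CYP3A7 is the fetal liver form, and CYP3A5 is a form whose level differs strongly between adults.

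The 3 CYP3A members lie in 1 cluster on chromosome 7. On GRCh38.p14, CYP3A5 runs from 99648194 to 99679996, CYP3A7 from 99705036 to 99735196 and CYP3A4 from 99756967 to 99784184, all on the minus strand. Their upstream sequences are printed because the 3 paralogs had such different levels. In each, RefSeq's 250 bases before the gene start are given 5′ to 3′ on the gene's strand, at chr7:99784185-99784434 for CYP3A4, chr7:99679997-99680246 for CYP3A5 and chr7:99735197-99735446 for CYP3A7. The capitals mark the 18 bases that align with the receptor-type everted repeat of CYP3A4.
CYP3A4: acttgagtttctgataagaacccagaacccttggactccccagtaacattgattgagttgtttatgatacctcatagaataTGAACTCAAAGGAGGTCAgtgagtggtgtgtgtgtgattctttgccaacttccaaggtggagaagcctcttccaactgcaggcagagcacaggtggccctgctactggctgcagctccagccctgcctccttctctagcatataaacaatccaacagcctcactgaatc
CYP3A5: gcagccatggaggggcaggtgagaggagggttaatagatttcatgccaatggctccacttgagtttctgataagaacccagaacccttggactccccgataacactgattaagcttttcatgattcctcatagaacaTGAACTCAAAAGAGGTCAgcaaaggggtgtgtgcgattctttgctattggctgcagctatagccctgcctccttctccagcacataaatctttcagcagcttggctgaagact
CYP3A7: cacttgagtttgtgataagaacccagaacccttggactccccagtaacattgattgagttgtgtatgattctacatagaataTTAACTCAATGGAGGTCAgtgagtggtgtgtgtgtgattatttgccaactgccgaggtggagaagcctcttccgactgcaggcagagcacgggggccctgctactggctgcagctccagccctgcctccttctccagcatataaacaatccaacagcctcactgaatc

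The capitals begin 169 bases before the start of CYP3A4, 113 before that of CYP3A5 and 168 before that of CYP3A7. Counted from 1 at the 5′ end of the capitals, with the CYP3A4 base first, CYP3A5 carried G11A, and CYP3A7 carried G2T and A10T. The motif searched on both strands was TGAACT, any 6 bases and AGGTCA, a pair of receptor hexamers pointing apart with 6 bases between them. It was found upstream of CYP3A4 and CYP3A5, and in 3 of 35116 windows of 250 upstream bases in the RefSeq table (0.00854%). The letters were not in the window of CYP3A7, where the G2T position falls in the left hexamer. The right hexamer alone, AGGTCA, was in 12.1% of windows, those of all 3 CYP3A members included. A match describes letters and is not evidence of binding. POR had no entry among these sequences.

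Sequence likeness bears on how far reads can be told apart between paralogs. Over the transcript bases that aligned, with gaps left out, CYP3A4 and CYP3A7 were 93.0% identical (2078 aligned bases). CYP3A4 and CYP3A5 were 88.7% identical (1720 aligned bases), and CYP3A5 and CYP3A7 87.8% (1719 aligned bases). The CYP3A4 transcript has 2781 bases, so part of it was not compared. In the GENCODE transcripts at hand, no window of 150 bases, the length of 1 read, was shared exactly between CYP3A members. CYP3A7 shared 70.3% of its windows with the readthrough transcript CYP3A7-CYP3A51P, which itself held 0 to 3 reads per library. On the same strand, 72.4% of CYP3A7 exon bases lie in exons of that readthrough. Whether reads that overlap both genes were counted is not given in the sources used here, so CYP3A7 levels may be too low. NR1I3 shares 258 exon bases with TOMM40L on the opposite strand, and whether the counting used strand is not given in the sources used here.

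Levels per length in the Model group ordered the members over a wide range. With counts scaled to library size (CPM) and divided by transcript length, POR had 77.1 CPM per kilobase, CYP3A5 had 3.15, NR1I3 had 2.96, CYP3A7 had 1.51, CYP2B6 had 0.822 and CYP2C8 had 0.286. CYP2E1 had 0.109, CYP3A4 had 0.0328 and NR1I2 had 0.0130. POR was the most abundant member in every group, and in Con CYP3A7 came next at 8.39 CPM per kilobase. CYP3A7 was divided by its full transcript length. Its value and place in the order are too low if reads shared with CYP3A7-CYP3A51P were not counted.

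Library totals ran from 16916688 to 23083498 counts. The first principal component of log2 CPM carried 53.6% of the variance and set the 3 RES libraries, at 55.7 to 57.7, apart from all others, at -21.4 to 0.402. Among controls, replicate 1 sat nearer to the other groups on the next component (18.1, against 27.3 and 29.2). Where leaving it out changed the call of a member against Con, the value without it is given. The hepatocyte markers ALB, APOA1, APOB, TTR, SERPINA1, TF, FGB and AFP were all present, with a summed level of 62263 to 70211 CPM in Con, 51599 to 52106 in the Model group, 43117 to 54239, 45910 to 48325 and 34770 to 39090 at 0.5, 1 and 2 μM FUCO, and 14937 to 15294 with RES. Of 3 endothelial markers CDH5 was at 0 in every library and VWF had at most 1 read, while PECAM1 had 3 to 36 reads. The 4 leukocyte markers were near 0, with at most 2 reads of PTPRC, 1 of CD3E, 7 of CD68 and 6 of CD79A.

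The receptor NR1I2, which encodes PXR, lies on chromosome 3 from 119782101 to 119818487. It was close to undetected. It had 9 reads in all 18 libraries and 0 reads in 11 of them. The highest library was RES replicate 1 with 3 reads, which is the number a count of 0 allows, equal to 0.121 to 0.179 CPM in these libraries. No difference in PXR transcript between groups was detectable at this depth, and its absence is not shown.

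CYP3A4, the gene PXR is best known for inducing, had 25 reads in all and 0 reads in 7 libraries. Con had 1, 0 and 0 reads, the Model group 2, 1 and 2, 0.5 μM FUCO 2, 5 and 0, 1 μM FUCO 6, 0 and 0, 2 μM FUCO 1, 0 and 2, and RES 2, 0 and 1. The groups overlapped throughout.

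CYP2E1, an ethanol-oxidising enzyme that also acts on fatty acids, lies on chromosome 10 from 133527363 to 133539123. It had 1 to 5 reads per library and 62 in all. The 3 libraries at 2 μM FUCO held 1, 2 and 2 reads, those of the Model group 5, 1 and 4, and those of Con 4, 5 and 5. When all genes with a read were tested without the filter, none of CYP3A4, CYP2E1 and NR1I2 passed in any comparison with Con or the Model group, with a lowest adjusted p of 0.277 for NR1I2 with RES against Con (edgeR).

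**Figure D1:**
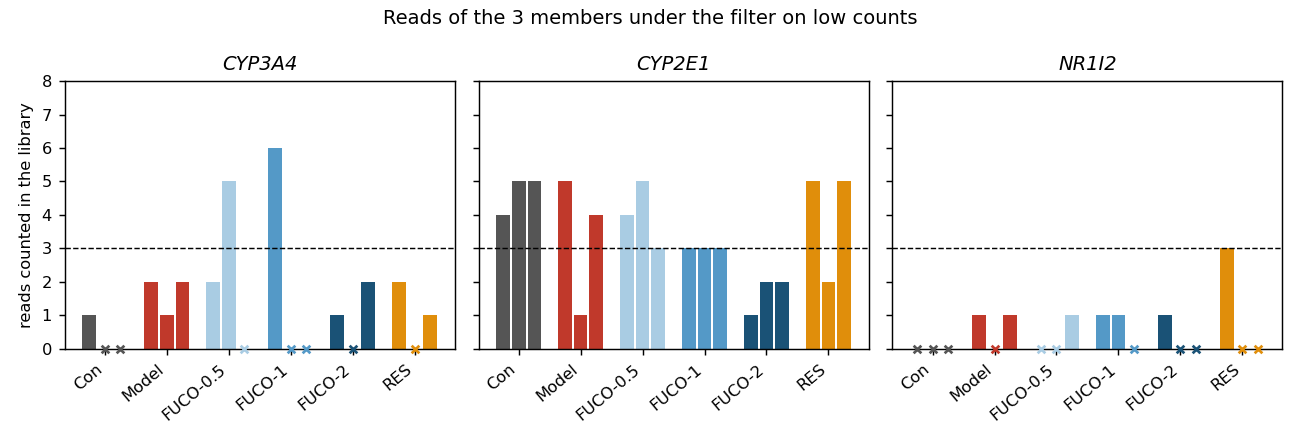
Reads per library of CYP3A4, CYP2E1 and NR1I2 (vertical axis, raw counts) in the 6 groups, 1 bar per library, with a cross where a library held 0 reads and a dashed line at 3 reads, the number a count of 0 allows. No library held more than 6 reads of any of the 3 genes.

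The receptor NR1I3, which encodes CAR, lies on chromosome 1 from 161229669 to 161238203 and was measured in every library. Its level was 4.28, 3.88 and 5.41 CPM in Con and 3.56, 3.89 and 4.71 in the Model group. At 0.5 μM FUCO it was 4.61, 3.87 and 3.52 CPM. At 1 μM it was 4.75, 3.88 and 5.03, and the top dose gave 4.20, 5.27 and 3.76. These 5 groups overlapped one another. With RES the level was 2.66, 1.72 and 2.61 CPM, below every library of the other groups.

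CYP3A7 was the CYP3A gene with the widest range. Its level was 11.04, 22.7 and 18.6 CPM in Con (17.4 ± 5.93, SD, n = 3) and 3.24, 2.95 and 3.25 in the Model group (3.14 ± 0.170). Every Model library was below every control. With FUCO the level was 3.24, 2.61 and 1.06 CPM at 0.5 μM, 2.28, 2.19 and 2.23 at 1 μM, and 2.13, 0.745 and 2.26 at 2 μM. With RES it was 0.0808, 0.108 and 0.187 CPM, from 2, 2 and 4 reads.

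CYP3A5 was the steady CYP3A gene. Its group means ran from 4.69 ± 0.307 CPM at 2 μM FUCO to 6.02 ± 0.869 with RES (SD, n = 3 each). Con had 4.91, 5.31 and 5.08 CPM, the Model group 5.54, 5.51 and 5.20, and RES 7.03, 5.49 and 5.55. With FUCO it was 5.93, 6.27 and 5.64 at 0.5 μM, 5.20, 5.41 and 4.46 at 1 μM and 4.72, 4.36 and 4.98 at 2 μM. RES replicate 1 was the highest of all 18 libraries, and the other 2 RES libraries were close to the top of the Model range.

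CYP2B6, the classical CAR target, lies on chromosome 19 from 40991282 to 41018398. It had 2.77, 1.73 and 1.95 CPM in Con, and 3.02, 2.50 and 2.06 in the Model group. FUCO at 0.5 μM gave 2.80, 2.46 and 2.51 CPM, 1 μM gave 3.07, 3.22 and 2.91, and the top dose 2.30, 3.83 and 3.59. The RES libraries were the 3 lowest of all 18, at 1.37, 1.35 and 1.49 CPM. CYP2C8, which oxidises arachidonic acid and several drugs, lies on chromosome 10 from 95036772 to 95069497. It was near the limit of counting, with 20, 4 and 14 reads in Con, 10, 13 and 7 in the Model group, and 3, 1 and 4 with RES. The FUCO groups had 4, 7 and 15 reads at 0.5 μM, 10, 8 and 11 at 1 μM and 2, 7 and 11 at 2 μM, and overlapped with Con and the Model group.

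POR lies on chromosome 7 from 75915155 to 75986855. It had 235, 197 and 194 CPM in Con, 190, 188 and 188 in the Model group and 168, 166 and 139 with RES. FUCO at 0.5 μM gave 160, 158 and 184 CPM, 1 μM gave 176, 165 and 197, and the top dose 210, 170 and 180. The Model libraries were all below Con by a small margin, and the RES libraries were all below the Model group.

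**Figure D2:**
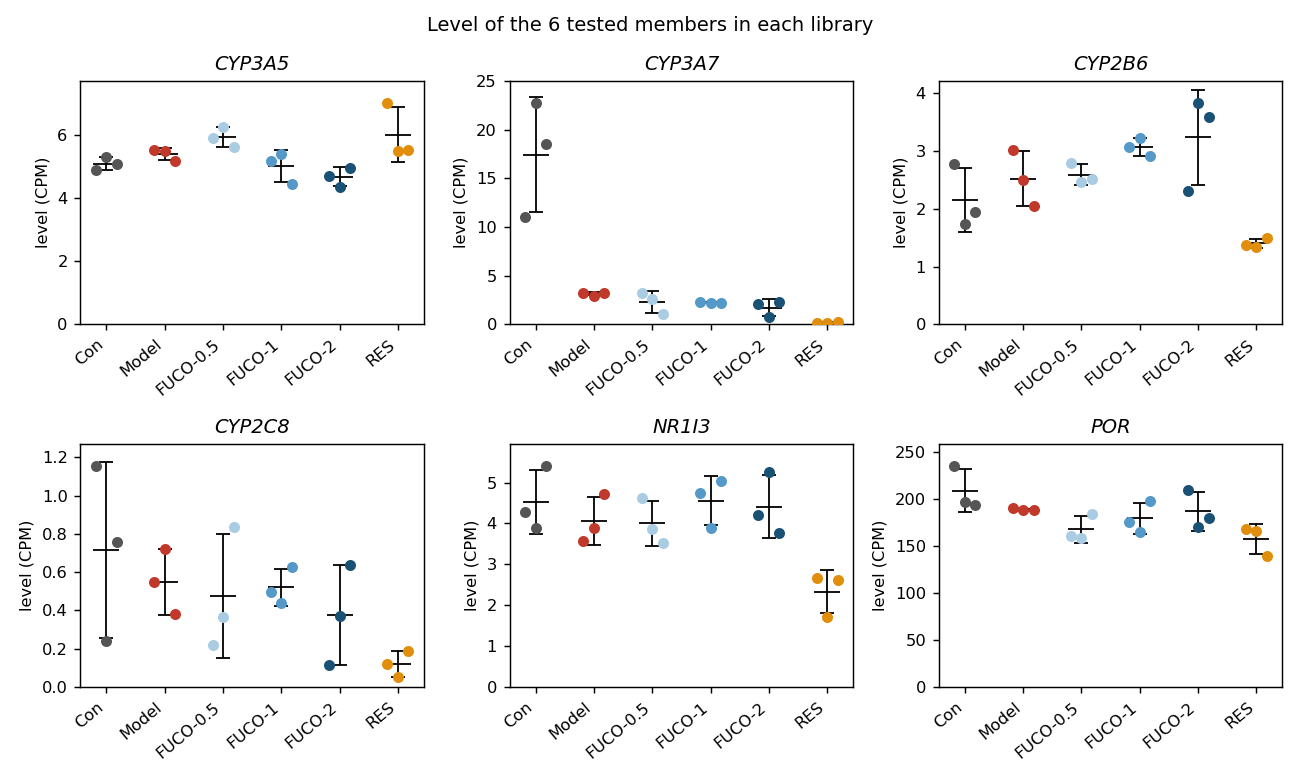
Level of the 6 members that passed the filter (vertical axis, CPM from 0, 1 panel per gene), 1 point per library with the group mean and SD. CYP3A7 was highest in the 3 controls and lowest in the 3 RES libraries, while CYP3A5 means stayed between 4.69 and 6.02 CPM.

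FFA against Con asks how these genes differed between cells given FFA and the controls. Whether the controls received the albumin that carried the FFA is not given in the sources used here. CYP3A7 fell by 2.47 on the log2 scale, with an SE of 0.26 (adjusted p = 3.93e-07, 95% interval -3.01 to -1.93). It was the only member called, 1 of 6 tested, where 9.12% of all 14557 tested genes were called lower and 17.6% were called in either direction. Without Con replicate 1, the lowest control for CYP3A7, the difference was -2.71. The other 5 members were not called with or without that library. Their log2 differences ran from -0.39 for CYP2C8 to 0.23 for CYP2B6, with CYP3A5 at 0.09 (95% interval -0.20 to 0.37), NR1I3 at -0.16 and POR at -0.15. Without Con replicate 1 CYP2C8 was at 0.11, CYP2B6 at 0.45 and POR at -0.052. The libraries of CYP3A7 and POR did not overlap between the groups, 2 of 6 members against 35.7% of all tested genes. In the same comparison 5 of 8 hepatocyte markers were lower and none higher. Of the 5 fibroblast and stellate markers, 4 were tested, of which 1 was higher and 2 lower, and their sum went from 28.1 to 36.7 CPM in Con to 18.5 to 20.4 in the Model group. PECAM1 was higher, with 19 reads in Con and 69 in the Model group. The part of these markers in the result was not tested.

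FUCO against the Model group asks whether fucoxanthin reversed or added to the change. No member was called at any dose by edgeR, where 1.45%, 3.21% and 20.5% of all tested genes were called at 0.5, 1 and 2 μM. At an unadjusted p under 0.05 there were 0, 0 and 1 members at these doses, beside 11.3%, 16.3% and 33% of all tested genes. Members whose libraries did not overlap with the Model group were CYP3A5 and POR at 0.5 μM, CYP3A7 at 1 μM, and CYP3A5 and CYP3A7 at 2 μM, beside 19.6%, 23.3% and 36.3% of all tested genes. The 1 member under the unadjusted threshold was CYP3A7 at 2 μM, with a log2 difference of -0.89 (SE 0.35, unadjusted p = 0.0164, adjusted p = 0.0706, 95% interval -1.61 to -0.18). DESeq2 called it (adjusted p = 0.0453) with nearly the same size, -0.89, and without FUCO-2 replicate 2, whose 14 reads were the fewest of the group, the edgeR difference was -0.52. At 2 μM all 8 hepatocyte markers were lower than in the Model group, and their part in this value was not tested.

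For CYP3A7 the log2 differences from the Model group were -0.44 at 0.5 μM, -0.49 at 1 μM and -0.89 at 2 μM. The doses themselves were not told apart, with adjusted p = 0.449 for 2 μM against 0.5 μM (95% interval -1.20 to 0.30). For CYP2B6 they were 0.04, 0.28 and 0.36, with adjusted p = 0.220 at the top dose. CYP3A5 differed by 0.14, -0.11 and -0.21, NR1I3 by -0.02, 0.17 and 0.12, CYP2C8 by -0.22, -0.08 and -0.54, and POR by -0.17, -0.07 and -0.01. At every dose, CYP2C8 and CYP3A7 had 95% intervals too wide to exclude a fall of 1 on the log2 scale. For CYP2C8 they were -1.30 to 0.86, -1.14 to 0.97 and -1.69 to 0.60 at 0.5, 1 and 2 μM. For CYP3A7 they were -1.11 to 0.23, -1.17 to 0.18 and -1.61 to -0.18. The interval for NR1I3 at 2 μM was -0.26 to 0.51.

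Against Con, CYP3A7 was lower in each FUCO group. The log2 differences were -2.91, -2.96 and -3.36 at 0.5, 1 and 2 μM (adjusted p = 4.07e-08, 3.54e-08 and 5.81e-09). These comparisons share the controls with that of the Model group. At 0.5 μM, 2 members were called lower, where 11.4% of tested genes were, the other being POR (-0.32, adjusted p = 0.0169). The POR call was lost without Con replicate 1 (adjusted p = 0.102) or FUCO-0.5 replicate 1 or 2 (0.0722 and 0.0721). At 1 μM only CYP3A7 was called, where 10.1% of tested genes were lower, and without Con replicate 1 CYP2B6 was called higher as well (0.74, adjusted p = 0.0223). At 2 μM CYP3A7 was called lower, where 11.9% of genes were, and CYP2B6 higher (0.59, SE 0.21, adjusted p = 0.0406), where 13% were. The CYP2B6 libraries overlapped with Con, and DESeq2 did not call it (adjusted p = 0.0722).

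RES against the Model group asks how the positive control moved these genes in FFA-treated cells. By edgeR 5 of 6 members fell, where 25.1% of all tested genes were called lower and 49.4% in either direction. CYP3A7 fell by 4.60 on the log2 scale, with an SE of 0.55 (adjusted p = 2.36e-07). In reads this was 8 against 172, or 3.93% of the Model level by depth-corrected ratio, with a counting interval of 1.67% to 7.91%. CYP2C8 fell by 2.09 (SE 0.67, adjusted p = 0.0115), from 30 reads to 8, a ratio of 22.5% with a counting interval of 8.92% to 50.3%. CYP2B6 fell by 0.84 (SE 0.23, adjusted p = 0.00324), NR1I3 by 0.78 (SE 0.20, adjusted p = 0.00202) and POR by 0.26 (SE 0.094, adjusted p = 0.0255).

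CYP3A5 was not called, with a log2 difference of 0.16 (95% interval -0.11 to 0.43, adjusted p = 0.322). The RES libraries of the 5 other members did not overlap with the Model group, 5 of 6 members against 64% of all tested genes. CYP2C8 lost its call without Model replicate 2 (adjusted p = 0.0543), and POR lost its call without RES replicate 3 (adjusted p = 0.166) or without any 1 Model library (adjusted p = 0.0534 to 0.0628).

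The summed level of the hepatocyte markers was also lower with RES than in the Model group. With RES 7 of the 8 were lower than in the Model group, ALB by -2.17 and AFP by -4.72 on the log2 scale, and FGB was higher by 0.42. The 3 cholangiocyte markers summed to 334 to 358 CPM in the Model group and 197 to 233 with RES, with at most 5 reads of KRT7. Of the 2 tested, 1 was called lower and 0 higher. KRT19 had 4256 to 4620 reads in the Model group and 1764 to 2522 with RES, while SOX9 had 1754 to 1989 and 2054 to 2602. The 5 fibroblast and stellate markers summed to 18.5 to 20.4 and 11.3 to 13.8 CPM, but 2 of the 4 tested were higher with RES, COL1A1 (adjusted p = 0.0489) and LUM (adjusted p = 0.0179). PDGFRB alone was called lower (12.3 to 1.16 CPM). PECAM1 was lower by -0.92 on the log2 scale (adjusted p = 0.0380). The part of these markers in the members' values was not tested. In bulk RNA, fewer cells that express a gene and less RNA per cell cannot be told apart. TOMM40L, whose exons overlap those of NR1I3, also fell, by 0.37 (adjusted p = 0.00102), and its part in the NR1I3 value was not tested.

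With RES against Con 5 of 6 members fell, where 28.5% of tested genes were lower. The log2 differences were -7.07 for CYP3A7, -2.49 for CYP2C8, -0.94 for NR1I3, -0.61 for CYP2B6 and -0.40 for POR. The CYP2B6 call (adjusted p = 0.0277) was lost without Con replicate 1 (-0.39, adjusted p = 0.194). CYP3A5 was 0.25 higher without passing (adjusted p = 0.115). RES against 2 μM FUCO called 5 of 6 members, 4 lower and 1 higher. The log2 differences were -3.70 for CYP3A7 (adjusted p = 3.33e-05), -1.21 for CYP2B6 (adjusted p = 6.74e-05), -0.90 for NR1I3 (adjusted p = 0.000484) and -0.24 for POR (adjusted p = 0.0352). CYP3A5 was higher by 0.37 (adjusted p = 0.0246). Of all tested genes, 26% were called lower and 22.5% higher. These are the highest and lowest groups for CYP3A5, and no other pair of groups called it. RES replicate 1 was its highest library, at 7.03 CPM against 5.49 and 5.55 for the other RES libraries. This pair was not rerun under the alternatives.

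**Figure D3:**
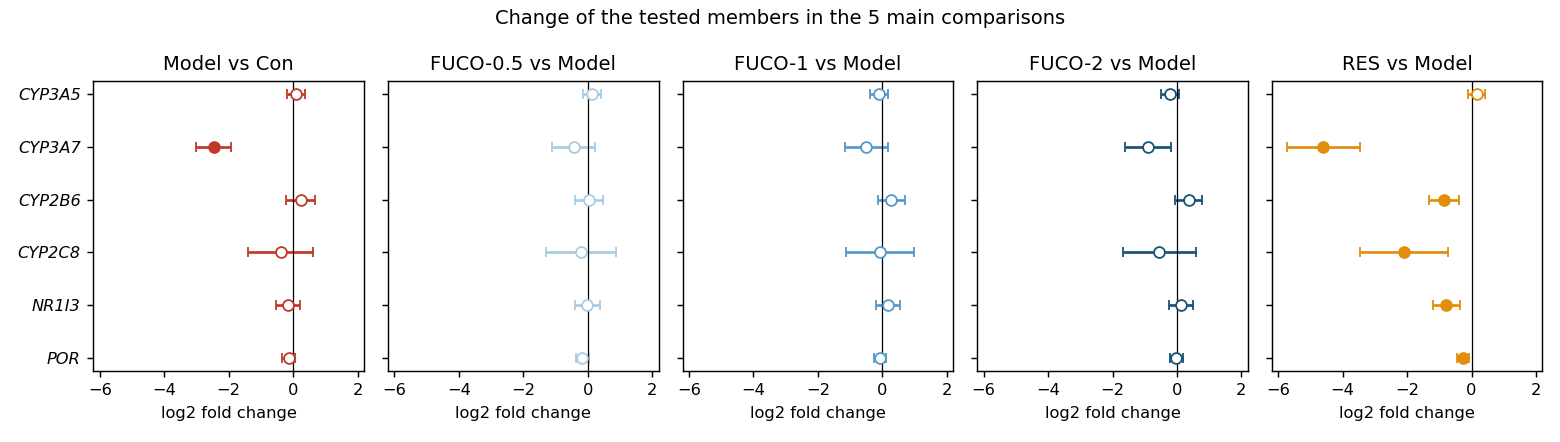
Log2 fold change with its 95% interval (horizontal axis) of the 6 tested members in the 5 main comparisons, 1 panel each, from the edgeR fit across all genes, with filled points for adjusted p under 0.05. The CYP3A7 interval against Con lay below 0 for the Model group (-3.01 to -1.93), and the CYP3A5 intervals against the Model group included 0.

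The gene with most counted CYP3A reads was not the same in every group. Reads that overlap both CYP3A7 and CYP3A7-CYP3A51P may be missing from the shares and sums given here. CYP3A7 made up 75.8% ± 6.46 (SD, n = 3) of reads on CYP3A4, CYP3A5, CYP3A7 and CYP3A43 in Con, and 35.2% ± 2.07 in the Model group. It made up 26.1% ± 9.56, 29.9% ± 2.76 and 24.6% ± 9.31 at 0.5, 1 and 2 μM FUCO. With RES it made up 2.07% ± 1.05, and CYP3A5 made up 95.2% to 97.2%. The summed CYP3A level went from 22.7 ± 6.10 CPM in Con to 8.94 ± 0.250 in the Model group and 6.26 ± 0.844 with RES. Counted as 1 feature, the CYP3A genes fell by 1.34 on the log2 scale with FFA (adjusted p = 3.00e-06) and by 0.51 from the Model group with RES (adjusted p = 0.0208).

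**Figure D4:**
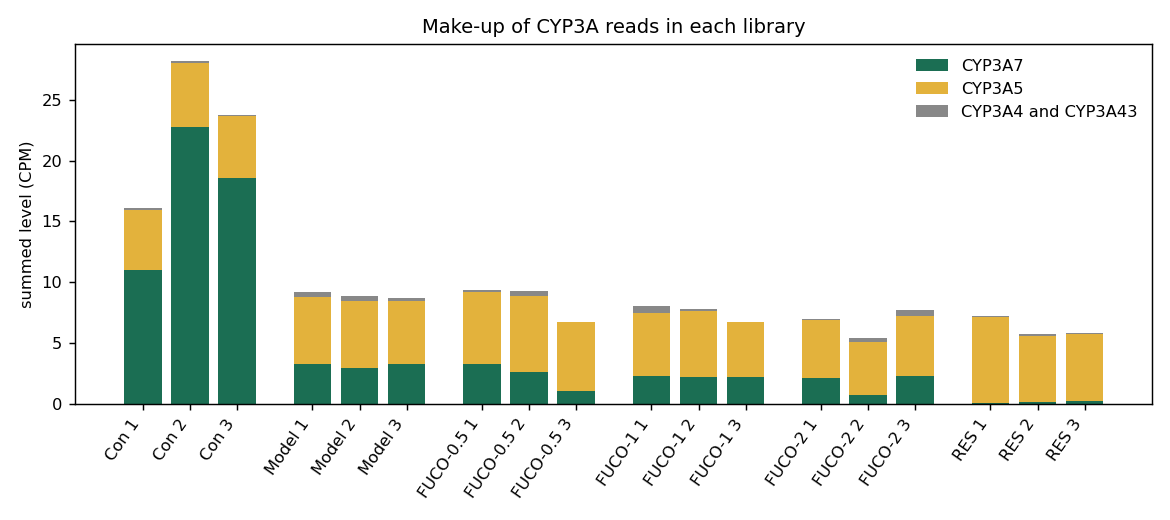
Summed level of the CYP3A genes (vertical axis, CPM) in each of the 18 libraries, with each bar divided into CYP3A7, CYP3A5, and CYP3A4 with CYP3A43. CYP3A7 gave 68.5% to 80.7% of the counted reads in the controls, and with RES nearly the whole bar was CYP3A5. Reads that CYP3A7 shares with CYP3A7-CYP3A51P may be missing.

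When the 6 groups were put in order of level for each member, 4 of 30 neighbouring pairs differed past the threshold. For CYP3A7 the order was Con, Model, then 0.5, 1 and 2 μM FUCO, then RES, and the first and last steps passed. For CYP2B6 the order was 2, 1 and 0.5 μM FUCO, Model, Con and RES, and only the last step passed. For NR1I3 only the step from 0.5 μM FUCO to RES passed (adjusted p = 0.00259). No neighbours differed for CYP3A5, CYP2C8 or POR.

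Genes with the most similar pattern were sought among 13077 genes by Pearson r of log2 CPM over the 18 libraries. All libraries share the group structure, so r describes likeness only. For CYP3A7 they were PANK1 (0.972) and LSS (0.971), for POR TOM1 (0.957) and GHDC (0.923), and for NR1I3 LINC01484 (0.914) and EGLN2 (0.906). For CYP2B6 they were RAMP2-AS1 and SLC43A3 (0.905 each), for CYP3A5 CCNE2 (0.860) and HAPSTR1 (0.834), and for CYP2C8 SEPHS1 (0.852) and IRGQ (0.833).

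The other CYP2 and CYP3 genes were mostly too low to test, with 6 of 14 passing the filter. FFA against Con called 1, CYP2U1, a fatty acid hydroxylase (0.51, adjusted p = 0.0447), where 17.6% of all tested genes were called. Without Con replicate 1 the call was lost (0.34, adjusted p = 0.183). No FUCO dose called any. With RES, where 49.4% of all tested genes were called, CYP2U1 rose (0.56) and 2 of the 6 fell, led by CYP2W1, from 27.7 to 4.85 CPM (-2.52, adjusted p = 1.71e-12). The median log2 difference of the list was 0.04 with FFA and -0.36 with RES, beside 0.00 over all tested genes in both.

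Of 19 conjugating enzymes and transporters under PXR and CAR, 16 were tested. With FFA 2 rose and 3 fell, beside 17.6% of all tested genes called, with a median of -0.09. Without Con replicate 1 the same 2 rose and 2 fell, with SLCO1B3 at -0.61 (adjusted p = 0.0914). SLCO1B1, an uptake transporter of hepatocytes, fell by 1.65 (adjusted p = 0.00337), and UGT1A6 rose by 1.42 (adjusted p = 0.0497), although it had 13 reads in Con and 37 in the Model group, and UGT1A genes share exons, so that their reads are uncertain. Without Con replicate 1 the UGT1A6 difference was 2.198 (adjusted p = 0.0113). None was called at 0.5 or 1 μM FUCO. At 2 μM ABCC3, an organic anion exporter, rose by 0.49 and UGT2B7 fell by 0.71, among 2 higher and 3 lower, where 20.5% of all tested genes were called.

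With RES 3 of the 16 rose and 11 fell, with a median of -0.44, beside 25.1% of all tested genes called lower and 49.4% called in either direction. The rises were UGT1A1, which conjugates bilirubin (1.91, adjusted p = 2.17e-07), ABCB1, the drug efflux pump P-glycoprotein, from 58.6 to 141 CPM (1.27, adjusted p = 3.79e-11), and SULT1A1 (1.03). Those that fell by over 1 on the log2 scale were SLCO1B3 (-3.22), UGT2B7 (-1.30), SULT2A1 (-1.23), SLCO1B1 and UGT1A9. SLCO1B1 had 6 reads against 23 (22.02% by ratio, counting interval 7.33% to 55.6%). UGT1A9 had 1 read against 16 (5.28% by ratio, counting interval 0.126% to 34.0%). Because UGT1A genes share exons, the reads of UGT1A1 and UGT1A9 are uncertain, as are those of UGT1A6.

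The genes listed as electron donors and haem synthesis were all tested, 12 of 12. With FFA 2 rose and 2 fell, beside 17.6% of all tested genes called, and without Con replicate 1, 2 rose and 4 fell. FECH, which inserts iron into haem, rose by 0.49 and CYB5B, a mitochondrial cytochrome b5, fell by 0.41. At 1 μM FUCO PGRMC1, a haem-binding partner of P450 enzymes, fell by 0.32, and it was the only one called, beside 3.21% of all tested genes. At 2 μM CYB5B fell by 0.72 and CPOX rose by 0.36, among 2 higher and 3 lower, beside 20.5% of all. With RES 4 rose, led by FECH (0.73, adjusted p = 5.62e-08), and 5 fell, led by CYB5B (-0.44), 9 of 12 in all beside 49.4% of all tested genes. ALAS1, the rate-limiting step of haem synthesis, fell by 0.26.

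All 20 receptor partners and liver transcription factors of P450 genes were tested. With FFA 4 fell and none rose, with a median of -0.15, beside 9.12% of all tested genes called lower and 17.6% in either direction. Without Con replicate 1, 5 fell and none rose. PPARGC1A, a coactivator of CAR and PXR, fell by 0.66 and CEBPA by 0.55. NR0B2 (SHP), which represses nuclear receptors, was lower at each FUCO dose against the Model group, by -0.76, -0.54 and -0.53 on the log2 scale at 0.5, 1 and 2 μM. At 2 μM 3 rose, led by HLF (0.55), and 3 fell, led by ONECUT1 (-0.59), beside 20.5% of all tested genes called. With RES 5 rose and 9 fell, with a median of -0.19, 14 of 20 in all beside 49.4% of all tested genes. RXRA, the partner of both receptors, went from 186 to 85.2 CPM (-1.13, adjusted p = 1.60e-09). CEBPA fell by 1.08, and DBP, a circadian factor that acts on P450 promoters, rose by 1.37 (adjusted p = 8.25e-05).

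**Figure D5:**
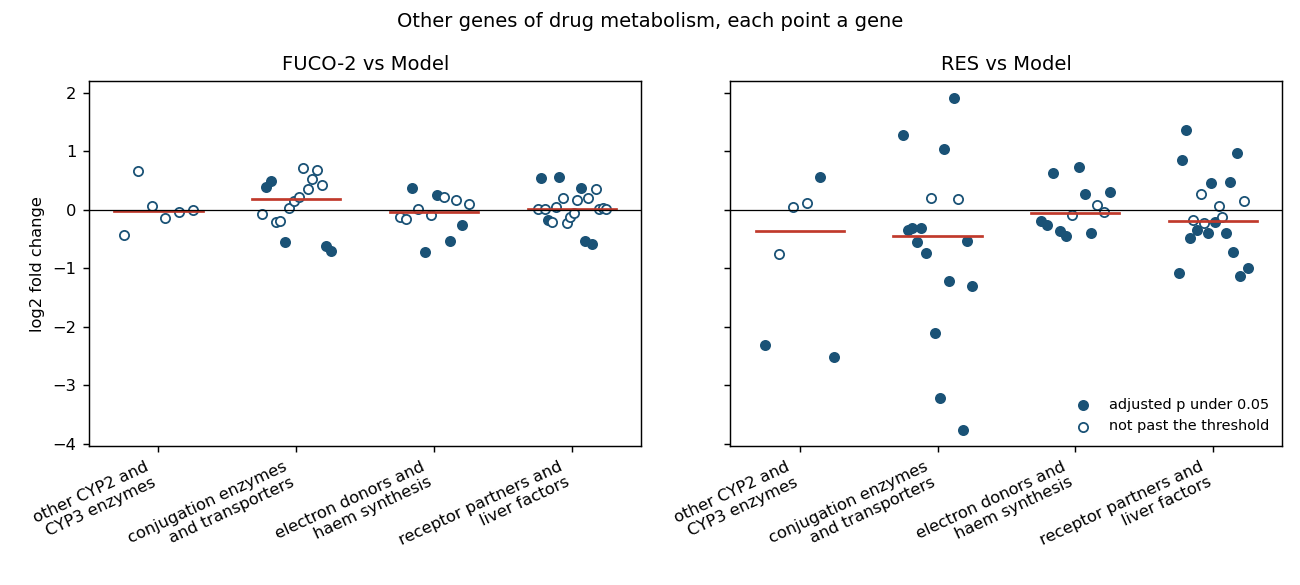
Log2 fold change (vertical axis) of each tested gene of the 4 lists at 2 μM FUCO and with RES, each against the Model group. Filled points passed the threshold and red lines are the medians, which for the conjugation list were 0.19 and -0.44.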

How the data were processed

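RNA was measured in 18 libraries of Hep3B cells, 3 in each of 6 groups, described in the study's methods as biological replicates and assigned by title. The deposited counts are raw reads per gene symbol. The authors trimmed paired reads of polyA libraries with fastp, aligned them with STAR to GRCh38.p14 and counted them with featureCounts, without normalization. The strand setting and the treatment of reads with several matches are not given in the sources used here.

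Counts were tested with edgeR 4.0.16 in R 4.3.3. Genes passed filterByExpr (minimum count 10, minimum total 15), which left 14557. TMM factors scaled the CPM, and a quasi-likelihood model with 1 term per group was fitted to all libraries. A gene was called at a Benjamini-Hochberg adjusted p under 0.05 over all 14557 genes, and a second rule added an absolute log2 fold change over 1. The study's methods use DESeq2, run here (1.42.0) as an alternative beside other filters, factors and sample sets. Genes with 3 or fewer counts in every library of a group were given by reads, and count intervals are exact at 95% and cover counting error only. The tests were tried on simulated counts.

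Sequences and positions are from RefSeq tables of GRCh38.p14, where 8 of 9 genes had an upstream sequence, and transcript lengths and shared windows from GENCODE release 44. The members and gene lists were chosen with earlier results of these data known. The text names all 9 genes, genes overlapping or paralogous to them, the 2 nearest patterns for each tested member (mean of at least 1 CPM), and, of each list, the largest rise and fall called per main comparison and genes called with a log2 fold change over 1 in size. By this rule 1 further list gene would be named and is not reported here. Other genes named from the lists were chosen after their values were seen.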

Additional observations from a re-analysis of the deposited data

How the results depend on the processing

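The 9 counts of members called and the 54 log2 differences behind them were recomputed under each alternative. The gene lists were recomputed only for the Model group against Con without Con replicate 1, which was chosen after seeing the data. That gave 0, 4, 6 and 5 genes called for the other CYP2 and CYP3, conjugation, electron donor and receptor partner lists, against 1, 5, 4 and 4 with all libraries. With at least 10 counts required in every library, CYP3A7 and CYP2C8 dropped out of the test. The members called were then 0 for the Model group against Con, 3 for RES against the Model group, 1, 0 and 1 for 0.5, 1 and 2 μM FUCO against Con, and 3 for RES against Con. Of all genes tested under that filter, 19%, 51.9%, 23.9%, 19.8%, 26.9% and 59.6% were called in these comparisons. At 2 μM FUCO against the Model group the count went from 0 to 1 with only the 2 groups fitted, with no filter and with DESeq2, where CYP3A7 had adjusted p = 0.0363, 0.000787 and 0.0453, beside 19.6%, 12.6% and 12.2% of all genes called. At 2 μM against Con it went from 2 to 1 with only the 2 groups or DESeq2, where CYP2B6 had adjusted p = 0.132 and 0.0722, beside 15.9% and 14.7% of all genes called. For RES against Con DESeq2 did not call CYP2B6 (adjusted p = 0.0516).

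The CYP3A paralogs were also summed into 1 feature, which replaced CYP3A5 and CYP3A7 and so did not retest either gene. The log2 difference of the sum was -1.34 for the Model group against Con. It was -0.075 for 0.5 μM FUCO and -0.51 for RES against the Model group, and -1.42 for 0.5 μM FUCO and -1.85 for RES against Con.

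Leaving out 1 library in turn gave 1 to 1 members called for the Model group against Con, 0 to 0, 0 to 0 and 0 to 1 for 0.5, 1 and 2 μM FUCO against the Model group, and 3 to 5 for RES, with 3 without Model replicate 2. Against Con it gave 1 to 2, 1 to 2 and 1 to 2 with FUCO and 4 to 5 with RES. The share of all tested genes called then ran from 10.8% to 20.7% for the Model group against Con. Against the Model group it ran from 0.746% to 1.97%, 1.49% to 4.48% and 13.4% to 22.8% with FUCO and 41.6% to 51.2% with RES. Against Con it ran from 16% to 24.6%, 11.1% to 22.2% and 17.7% to 26% with FUCO and 51.2% to 58.7% with RES. At 2 μM FUCO against the Model group, CYP3A7 ran from -1.15 to -0.52 and was called without Con replicate 1 (adjusted p = 0.0309), FUCO-0.5 replicate 3 (0.0385) or FUCO-2 replicate 3 (0.0459). CYP2B6 against Con was called at 1 μM without Con replicate 1 (0.74, adjusted p = 0.0223). At 2 μM it lost its call without Con replicate 2 or 3 or FUCO-2 replicate 2 or 3, and with RES without Con replicate 1 or RES replicate 1 or 2. The sign turned, with no call on either side, for CYP2C8 with FFA (-0.79 to 0.11), and at 0.5 μM FUCO against the Model group for CYP2B6 (-0.092 to 0.18), CYP2C8 (-0.88 to 0.12) and NR1I3 (-0.13 to 0.10). It also turned for CYP2C8 at 1 μM (-0.29 to 0.16), and at 2 μM for NR1I3 (-0.027 to 0.25) and POR (-0.11 to 0.047). Against Con it turned at 1 μM for CYP3A5 (-0.075 to 0.056), CYP2C8 (-0.87 to 0.028) and NR1I3 (-0.089 to 0.16), and at 2 μM for NR1I3 (-0.19 to 0.12).

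Libraries with the same replicate number had a median r of 0.0243 over 45 pairs, against -0.0221 over 90 pairs with different numbers. An r over 0.1 was seen in 7 of the 45 and 8 of the 90 pairs. These values cannot settle whether libraries with the same number were handled together. The replicate block changed no member's call, with CYP3A7 at -2.46 for the Model group against Con. Over all tested genes it took the number called in that comparison from 2555 to 2617. Depth limits CYP3A4, CYP2E1, NR1I2 and CYP2C8, whose reads are too few to show small differences.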
